A study of Rattus norvegicus with 18 samples.

Results

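The microRNAs (miRNAs) described here are the mature products of 5 families best known from neurons, miR-124, miR-9, miR-128, miR-137 and miR-138. They were taken by name from a list of miRNAs enriched in neurons. The list held 10 of the 753 miRNAs in the table, namely rno-miR-124-3p, rno-miR-124-5p, rno-miR-9a-5p, rno-miR-9a-3p, rno-miR-128-3p, rno-miR-137-3p, rno-miR-137-5p, rno-miR-138-5p, rno-miR-138-1-3p and rno-miR-138-2-3p, written from here on without the rat prefix. The 5p arms of miR-128 were not on it and are given beside it as other arms. Of these, 6 were tested, since their counts exceeded 10 in 6 or more libraries of 18. The 4 that fell below this filter were both arms of miR-124 and both arms of miR-9a.

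Small RNA was sequenced from cervical dorsal root ganglia (DRG), levels 6 to 8, of adult lister hooded rats. The 6 naive rats had no surgery and no injection. In the 6 bPYX+GFP and 6 bPYX+NT3 rats the corticospinal tract had been cut on both sides at the medullary pyramids (bilateral pyramidotomy, bPYX), and ganglia were taken 10 weeks after injury. The injured rats had received an AAV1 vector with a CMV promoter in the forelimb flexor muscles of one side, carrying EGFP in bPYX+GFP and human neurotrophin-3 in bPYX+NT3. Surgery and vector were thus shared by both injured groups and absent from naive rats, so their parts in a difference from naive cannot be told apart. Ganglia were combined within each rat, from the treated side in injured rats, and homogenised whole. This gave 1 library per rat of neurons together with glia, vessel and other cells. In such bulk samples fewer cells of a type and less RNA per cell cannot be told apart.

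A mature miRNA is cut from a hairpin precursor and guides a repressor complex to messenger RNAs, mainly by pairing through its seed, bases 2 to 8 from the 5′ end. The precursor has a 5p and a 3p arm, and one arm is usually kept far more often than the other. miR-124 and miR-9 are known for driving neuronal differentiation, miR-128 for restraining neuronal excitability, miR-137 for controlling neuronal maturation and synapses, and miR-138 for limiting dendritic spine growth and, in cultured sensory neurons, axon growth.

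The mature sequences are shown because the seeds tell the families apart and because the counts of the arms rest on them. They are from RefSeq for the rat assembly GRCr8, which is not the build used for the counts, and the capitals mark the seed.
miR-128-3p: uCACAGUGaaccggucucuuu
miR-137-3p: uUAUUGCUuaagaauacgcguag
miR-137-5p: aCGGGUAUucuuggguggauaa
miR-138-5p: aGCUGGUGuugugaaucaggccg
miR-138-1-3p: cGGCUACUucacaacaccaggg
miR-138-2-3p: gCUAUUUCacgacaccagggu
miR-9a-5p: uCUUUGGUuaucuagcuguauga
miR-9a-3p: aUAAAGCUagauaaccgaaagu
No 2 of these 8 share a seed, and 0 other miRNAs of the table with a RefSeq sequence share a seed with any of them. The 3p arms of miR-138 therefore differ from each other in the seed, although their shared 5p partner is the same.

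The precursors show which arms can be read apart by gene. In the RefSeq hairpins below, given 5′ to 3′ on the strand of the gene, the capitals mark the mature arms.
Mir137, chr2:209165709-209165810, + strand: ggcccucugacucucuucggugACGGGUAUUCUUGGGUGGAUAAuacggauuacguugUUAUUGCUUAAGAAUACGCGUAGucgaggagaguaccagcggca
Mir128-1, chr13:42251884-42251965, + strand: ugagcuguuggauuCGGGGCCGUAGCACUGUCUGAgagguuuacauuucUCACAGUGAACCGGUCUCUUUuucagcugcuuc
Mir128-2, chr8:120963795-120963878, - strand: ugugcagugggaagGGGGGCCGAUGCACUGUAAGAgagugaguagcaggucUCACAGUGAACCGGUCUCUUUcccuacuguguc
Mir138-1, chr8:131178434-131178532, + strand: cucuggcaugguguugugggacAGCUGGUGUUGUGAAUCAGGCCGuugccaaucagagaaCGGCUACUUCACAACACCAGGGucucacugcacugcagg
Mir138-2, chr19:10680133-10680214, - strand: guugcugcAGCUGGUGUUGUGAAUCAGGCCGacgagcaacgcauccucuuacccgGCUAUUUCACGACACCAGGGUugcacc
Mir137 lies within the span of a long non-coding RNA gene, Mir128-1 within R3hdm1, Mir128-2 within Arpp21 and Mir138-2 within Slc12a3. Mir138-1 lies within the spans of long non-coding RNA genes. miR-128-3p and miR-138-5p are each the product of 2 genes with the same mature sequence, so their counts are sums that cannot be divided between the genes. Around miR-128-3p the genes share 2 further bases before the mature sequence and 0 after it, where the next base is U in Mir128-1 and C in Mir128-2. Around miR-138-5p they share 1 base before and 0 after it, where the next base is U in Mir138-1 and A in Mir138-2.

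Counts given to miRNAs were 3879788 to 6919863 per library. Levels are given as counts per M miRNA counts (CPM, with M the SI prefix mega) after scaling by the trimmed mean of M values (TMM), with the SD over libraries. No correction for length was made, so an order of levels between miRNAs is of read counts and includes how readily each miRNA enters a library. The label of sensory ganglion was checked against miRNAs of sensory neurons, of which miR-182 and miR-96-5p were counted and miR-183-5p was at 0, with a sum of 23643 to 33103 CPM per library. Of the 20 cell type markers in the table, 5 were at 0 in every library (miR-183-5p, miR-338-3p of glia, miR-126a-5p of endothelium, and miR-1-3p and miR-133a-3p of skeletal muscle).

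The 6 members that passed the filter covered a wide range of levels. miR-128-3p led as the 21st most abundant miRNA of the table, at 8143 ± 1205 CPM over the 18 libraries, which was 0.814% of miRNA counts. miR-138-5p followed at 1018 ± 187 CPM and miR-137-3p at 322 ± 94.1 CPM. The remaining arms that passed the filter were miR-138-1-3p at 136 ± 15.6, miR-138-2-3p at 37.9 ± 3.82 and miR-137-5p at 15.8 ± 3.05 CPM. No neighbours in this order overlapped, since the lowest of the 18 libraries for each lay above the highest for the next.

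miR-124, by reputation the most abundant miRNA of the brain, was nearly uncounted. miR-124-3p had 0 to 7 counts per library and 35 in all, and was seen in 12 of 18 libraries. Pooled over the libraries this was 0.414 per M (exact binomial 95% interval 0.288 to 0.575, which covers counting error only). The naive libraries held 8 of these counts, bPYX+GFP 12 and bPYX+NT3 15, and this arm was below the filter. miR-124-5p, the arm usually discarded, had 1 to 10 counts per library and 75 in all, or 0.887 per M (0.697 to 1.11), with group sums of 26, 25 and 24. RefSeq names 3 genes for miR-124 in the rat.

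miR-9a was lower still. miR-9a-5p had 3 counts in all, 1 each in naive replicates 5 and 6 and in bPYX+GFP replicate 2. miR-9a-3p had 0 counts in all 18 libraries, which allows up to 0.0355 per M over the pooled counts. miR-9b, an entry on the opposite strand of the same genes, had 0 counts for both arms in every library.

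The position of miR-9a in the annotation is shown because few miRNAs share it. In RefSeq each miR-9a arm is overlapped on the opposite strand by a miR-9b arm. miR-9a-5p has 3 genes there and miR-9b-3p 2, so not every gene of miR-9a-5p has this overlap. The capitals mark the bases of miR-9a that pair with the miR-9b arm.
miR-9a-5p: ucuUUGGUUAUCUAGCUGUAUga
miR-9b-3p: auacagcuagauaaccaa
miR-9a-3p: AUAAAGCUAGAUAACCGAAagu
miR-9b-5p: uucgguuaucuagcuuuau
The run is 18 bases in miR-9a-5p, at positions 4 to 21 from the 5′ end, and 19 bases in miR-9a-3p, at positions 1 to 19. Of the 753 miRNAs listed, 688 were matched to RefSeq by name, and 94 of these were overlapped by another mature miRNA on the opposite strand, both partners of a pair being counted. Of the 94, 82 (87.2%) had no count in any library and 6 (6.38%) passed the filter. Of the 594 without such an overlap, 81 (13.6%) had no count and 344 (57.9%) passed. All 5 cell type markers at 0 were among the overlapped. The remaining matched members, of miR-128, miR-137 and miR-138, were not overlapped. Neither arm of miR-124 was matched by name, so these percentages do not cover miR-124.

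The members also differ in the number of genes per mature sequence. All 4 matched miRNAs with 3 genes were below the filter, 2 of them the miR-9a arms, but 3 of the 4 (both miR-9a arms and miR-9b-5p) are also overlapped on the opposite strand. Of the 23 miRNAs with 2 genes, which include miR-128-3p and miR-138-5p, 12 passed (52.2%), against 338 of 661 (51.1%) with 1 gene. Among those with no opposite-strand overlap, 9 of 18 (50.0%) with 2 genes and 335 of 575 (58.3%) with 1 gene passed. Reads of low alignment quality, which can include reads that match several places equally well, were 28.0 to 35.1% of each library, and ambiguous reads 2.61 to 3.72%. What part multiple genes or opposite-strand entries had in the low counts of miR-124 and miR-9a was not tested, and their counts are not read as levels in the ganglion.

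**Figure D1:**
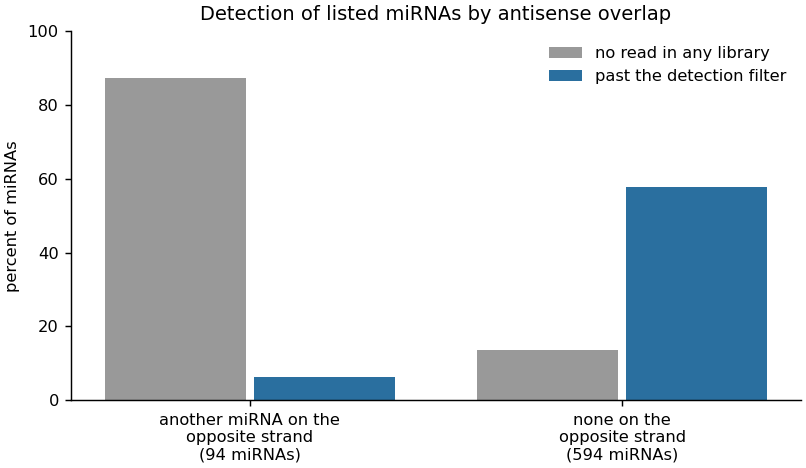
Percent of matched miRNAs with no count in any of the 18 libraries and percent that passed the filter, by whether another mature miRNA lies on the opposite strand in RefSeq. The 94 overlapped miRNAs, with both miR-9a arms among them, had no count in 87.2% of cases, against 13.6% of the 594 others.

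Injured rats given the GFP vector were first set against naive rats, to ask what differed in the ganglia after corticospinal injury. The neuronal miRNAs showed no difference that passed a test here. With edgeR's quasi-likelihood test, 0 of the 6 tested members had a Benjamini-Hochberg adjusted p under 0.05, where 2.41% of all 373 tested miRNAs did. By the study's own criterion, p under 0.05 with no adjustment, applied here to the quasi-likelihood test, it was also 0 of 6, where 21.2% of all tested passed. The groups overlapped for all 6, where 4.02% of all tested did not overlap. Their median log2 fold change was 0.0057, beside 0.0036 over all tested.

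The main product of miR-128 was close between these groups. miR-128-3p was at 7201 CPM in the lowest, 9028 at the median and 10083 in the highest naive library. In bPYX+GFP it was at 7408, 8227 and 8846 CPM. All 6 bPYX+GFP libraries lay within the naive range (log2 fold change -0.10 ± 0.09 SE, 95% interval -0.29 to 0.08, edgeR adjusted p = 0.548).

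The abundant arms of miR-137 and miR-138 also overlapped. miR-137-3p was at 213 (lowest), 272 (median) and 367 (highest) CPM in naive and at 256, 281 and 391 CPM in bPYX+GFP. Its log2 fold change was 0.13 ± 0.14 (95% interval -0.16 to 0.42, edgeR adjusted p = 0.657), and it was 0.02 without bPYX+GFP replicate 5 and 0.24 without naive replicate 1. For both arms the highest library was in bPYX+GFP and the lowest in naive. miR-138-5p was at 778, 980 and 1066 CPM in naive and 832, 910 and 1152 CPM in bPYX+GFP, with a log2 fold change of 0.01 ± 0.09 (interval -0.19 to 0.20, edgeR adjusted p = 0.983).

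The minor arms are made from the same precursors and are usually degraded. miR-137-5p ran from 12.1 through a median of 14.4 to 18.7 CPM in naive and from 13.8 through 17.1 to 24.1 CPM in bPYX+GFP, the widest difference of the 6 in this comparison (log2 fold change 0.27 ± 0.15, interval -0.05 to 0.59, edgeR unadjusted p = 0.0894, adjusted p = 0.314). It lay above the naive mean in 4 of 6 libraries. The unadjusted p was under 0.05 without naive replicate 4 (0.0305), bPYX+GFP replicate 4 (0.0440) or bPYX+GFP replicate 6 (0.0457). Without bPYX+GFP replicate 1 the log2 fold change was 0.17 (edgeR unadjusted p = 0.256). The 3p arms of miR-138 had log2 fold changes of -0.04 ± 0.10 for miR-138-1-3p and 0.00 ± 0.10 for miR-138-2-3p (edgeR adjusted p = 0.910 and 0.989), and their groups overlapped.

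**Figure D2:**
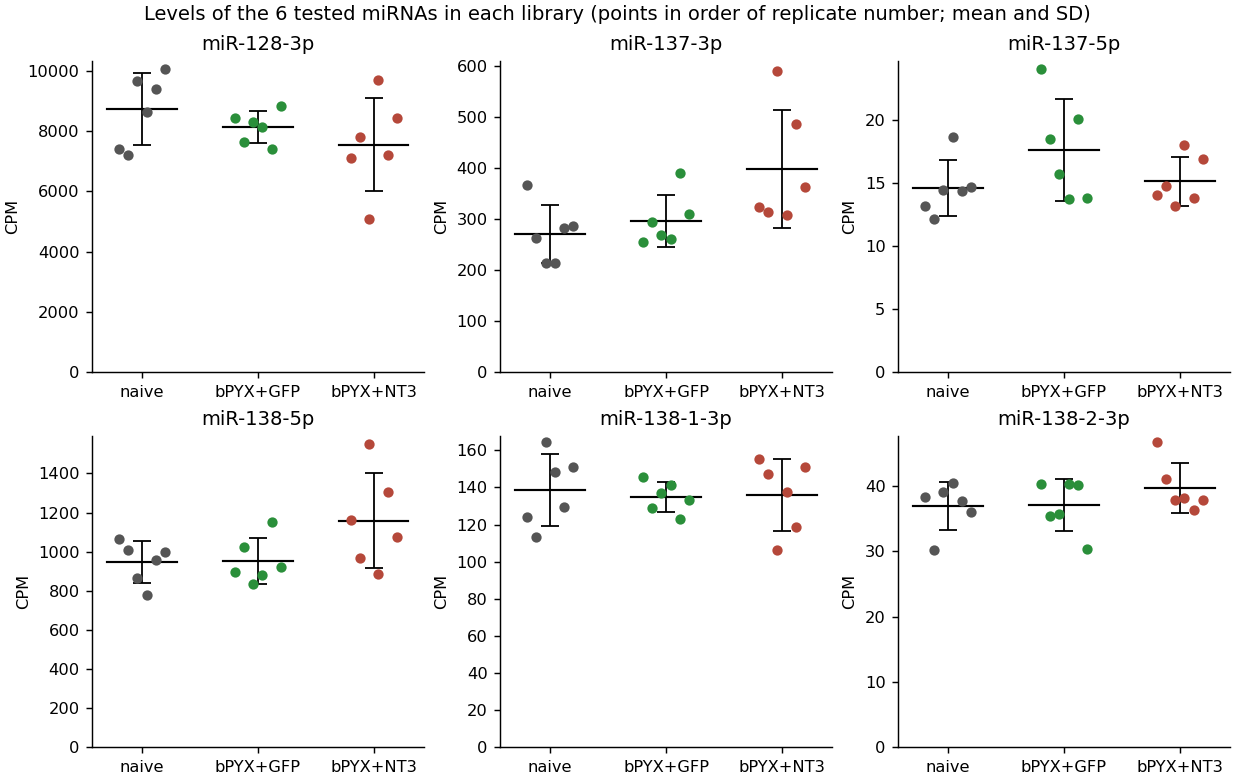
Level of each tested member in CPM after TMM scaling, on an axis from 0, for the 6 libraries of each group in order of replicate number, with the group mean and SD. miR-137-3p and miR-138-5p have their highest values in bPYX+NT3 replicates 3 and 5 (591 and 488 CPM, and 1552 and 1303 CPM), and every pair of groups overlaps for every member.

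The injured groups, which share the surgery and the vector type, were then set against each other to ask what differed with neurotrophin-3. miR-137-3p was higher at an unadjusted p under 0.05 and not after adjustment, and the other 5 members did not pass either. With edgeR, 0 of 6 members had an adjusted p under 0.05, and the percentage over all 373 tested was 0.0%. At an unadjusted p under 0.05 it was 1 of 6, where 8.58% of all tested passed, 5.09% as higher and 3.49% as lower. The median log2 fold change of the members was 0.062, beside -0.0004 over all tested. The groups did not separate for any member, nor for any of the 373 (0.0%).

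miR-137-3p was at 309 CPM in the lowest, 344 at the median and 591 in the highest bPYX+NT3 library, against 256, 281 and 391 CPM in bPYX+GFP. All 6 bPYX+NT3 libraries lay above the bPYX+GFP mean of 297 CPM, and 2 of them, replicates 3 and 5, lay above every bPYX+GFP library. The log2 fold change was 0.44 ± 0.18 (interval 0.05 to 0.82), with an edgeR unadjusted p of 0.0276 and an adjusted p of 0.448. A two-sided exact permutation test of mean log2 CPM over the same 12 libraries, chosen after seeing the data, gave p = 0.0606. The edgeR unadjusted p rose above 0.05 without bPYX+GFP replicate 1 (0.0624), 3 (0.0550) or 4 (0.0567) and without bPYX+NT3 replicate 3 (0.0913) or 5 (0.0662). Without bPYX+NT3 replicate 3 the log2 fold change was 0.26.

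miR-138-5p had a similar pattern in these libraries. It was at 887, 1118 and 1552 CPM (lowest, median, highest) in bPYX+NT3 and 832, 910 and 1152 CPM in bPYX+GFP. bPYX+NT3 replicates 3 and 5 were again the 2 highest, and 5 of 6 bPYX+NT3 libraries lay above the bPYX+GFP mean. The log2 fold change was 0.29 ± 0.14 (interval -0.0085 to 0.59), with an edgeR unadjusted p of 0.0560, above the 0.05 criterion, and an adjusted p of 0.576. The unadjusted p fell under 0.05 without bPYX+GFP replicate 2 (0.0454) or 5 (0.0235), or without bPYX+NT3 replicate 2 (0.0371), 4 (0.0226) or 6 (0.0494). Without bPYX+NT3 replicate 3 the log2 fold change was 0.16 (edgeR unadjusted p = 0.178), and without replicate 5 it was 0.25 (0.110). The two-sided exact permutation test gave p = 0.0801. It was also under 0.05 in edgeR fits with median-of-ratios size factors (0.0441), a filter of over 100 counts (0.0395) or all 18 libraries (0.0266), and in DESeq2 (0.0403).

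miR-128-3p was spread more widely with neurotrophin-3. It was at 5098, 7499 and 9712 CPM in bPYX+NT3, a range that holds all of bPYX+GFP (log2 fold change -0.10 ± 0.11, interval -0.34 to 0.14, edgeR adjusted p = 0.830). The log2 fold change was -0.03 without bPYX+NT3 replicate 3 and -0.19 without replicate 4 (edgeR unadjusted p = 0.729 and 0.0762). Among the minor arms, miR-137-5p ran from 13.1 to 18.1 CPM with a median of 14.4 in bPYX+NT3 (log2 fold change -0.22 ± 0.16, edgeR adjusted p = 0.668, and -0.12 without bPYX+GFP replicate 1). miR-138-1-3p ran from 106 to 155 CPM in bPYX+NT3 and from 123 to 145 in bPYX+GFP (log2 fold change 0.02 ± 0.09, edgeR adjusted p = 0.952). miR-138-2-3p ran from 36.4 to 46.8 CPM and from 30.4 to 40.4 CPM (0.11 ± 0.10, edgeR adjusted p = 0.745). None of these 4 separated the groups.

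Set against naive, the bPYX+NT3 libraries are the same as before, so this comparison is not independent of the last. miR-137-3p and miR-138-5p were higher at an unadjusted p under 0.05, and neither was after adjustment. With edgeR, 0 of 6 members had an adjusted p under 0.05 (0.0% of all 373 tested), and 2 of 6 an unadjusted p under 0.05, where 13.7% of all tested passed, 7.24% as higher and 6.43% as lower. The members' median log2 fold change was 0.075, beside -0.011 over all tested. The groups overlapped for all 6, where 1.34% of all tested did not overlap.

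miR-137-3p averaged 398 ± 116 CPM with neurotrophin-3 and 271 ± 57.2 CPM in naive rats (SD, n = 6 per group), a fold of 1.47. Its log2 fold change was 0.56 ± 0.18 (interval 0.18 to 0.93), with an edgeR unadjusted p of 0.00618 and an adjusted p of 0.191. All 6 bPYX+NT3 libraries lay above the naive mean, and the two-sided exact permutation test gave p = 0.0238. Leaving out each library in turn kept the unadjusted p between 0.00149 and 0.0165 and the log2 fold change between 0.41 and 0.66, with the lowest fold change without bPYX+NT3 replicate 3.

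miR-138-5p averaged 1157 ± 242 CPM against 946 ± 106 CPM, with a log2 fold change of 0.29 ± 0.12 (interval 0.03 to 0.56). Its edgeR unadjusted p was 0.0336 and its adjusted p 0.349, and 5 of 6 bPYX+NT3 libraries lay above the naive mean. The two-sided exact permutation test gave p = 0.0779. The edgeR unadjusted p rose above 0.05 without naive replicate 3 (0.0661) or 4 (0.0785), or without bPYX+NT3 replicate 3 (0.0936) or 5 (0.0711). Without bPYX+NT3 replicate 3 the log2 fold change was 0.19.

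miR-128-3p averaged 7558 ± 1540 CPM with neurotrophin-3 and 8738 ± 1205 CPM in naive rats. The log2 fold change was -0.21 ± 0.13 (interval -0.49 to 0.07, edgeR unadjusted p = 0.136, adjusted p = 0.456), with 5 of 6 bPYX+NT3 libraries below the naive mean. The unadjusted p was 0.0328 without bPYX+NT3 replicate 4, the highest of its group at 9712 CPM. Without bPYX+NT3 replicate 3, the lowest at 5098 CPM, the log2 fold change was -0.12 (edgeR unadjusted p = 0.292). The minor arms had log2 fold changes of 0.05 ± 0.13 for miR-137-5p, -0.03 ± 0.12 for miR-138-1-3p and 0.10 ± 0.10 for miR-138-2-3p, with edgeR adjusted p of 0.897, 0.945 and 0.70.

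**Figure D3:**
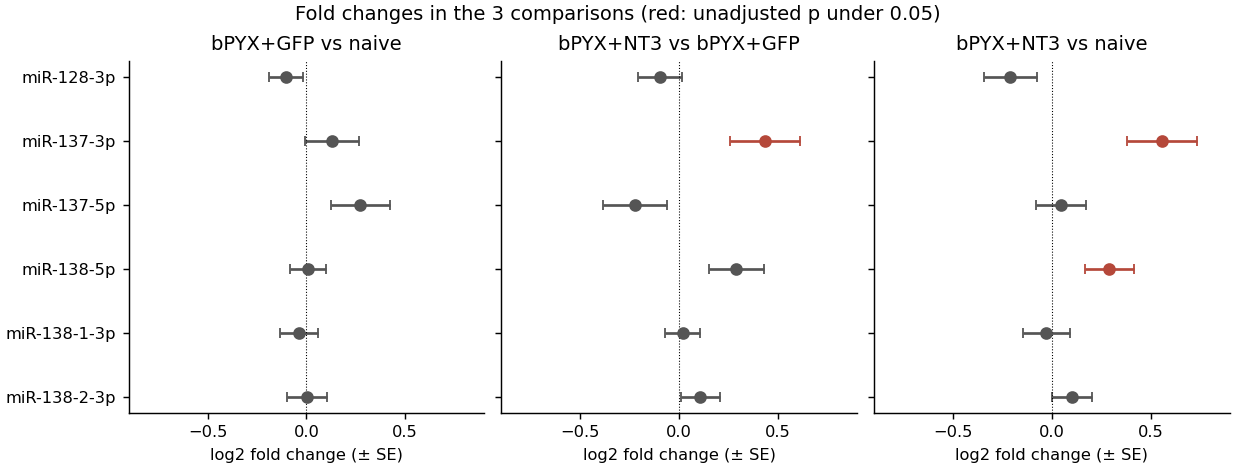
Log2 fold change ± SE (edgeR) of the 6 tested members in each of the 3 comparisons, with red for an unadjusted p under 0.05. Red points are miR-137-3p in both comparisons of bPYX+NT3 (0.44 and 0.56) and miR-138-5p against naive (0.29).

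The arms of a precursor were compared within each library. In miR-137 the 3p arm was higher with neurotrophin-3 at the unadjusted criterion and the 5p arm was not. The 5p arm took 3.47, 4.87 and 8.05% (lowest, median, highest) of miR-137 reads in naive libraries. It took 4.26, 5.27 and 8.62% in bPYX+GFP libraries and 2.17, 4.31 and 5.53% with neurotrophin-3. The 2 lowest shares were those of bPYX+NT3 replicates 3 and 5, 2.17 and 2.75%, on 62 and 72 reads of the 5p arm. The mean share in bPYX+NT3 less that in bPYX+GFP was -1.78 percentage points, and the share was below the bPYX+GFP mean in 6 of 6 libraries (two-sided exact permutation p = 0.0390 over 924 splits, Benjamini-Hochberg adjusted p = 0.234 over the 6 tests of arm shares). With the replicate number as a block, the exact permutation p was 0.125. Leaving out each library gave a difference of -2.10 to -1.20 points, and p from 0.0130 to 0.0779. Against naive the difference was -1.41 points (exact permutation p = 0.119, adjusted p = 0.357), and between bPYX+GFP and naive it was 0.37 points (p = 0.671, adjusted p = 0.801).

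In miR-138 the 3p arms together took a larger share, 15.8 ± 2.94% in naive rats, 15.5 ± 2.04% with the GFP vector and 13.6 ± 3.29% with neurotrophin-3 (SD, n = 6 per group). bPYX+NT3 replicates 3 and 5 were again lowest, at 8.50 and 10.6%. The exact permutation p was 0.801 for bPYX+GFP against naive, 0.279 for bPYX+NT3 against bPYX+GFP and 0.242 for bPYX+NT3 against naive (adjusted p = 0.801, 0.419 and 0.419). Because its 3p arms differ in sequence, miR-138 also shows the genes apart. miR-138-1-3p made up 73.7 to 81.4% of the counts of both 3p arms, with a median of 78.3%. This is a share of 3p reads and does not give the part of Mir138-1 in miR-138-5p. In miR-128 the 5p arms took 0.0513 to 0.127% of reads, with 7 to 27 counts of miR-128-1-5p and 11 to 31 of miR-128-2-5p per library.

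**Figure D4:**
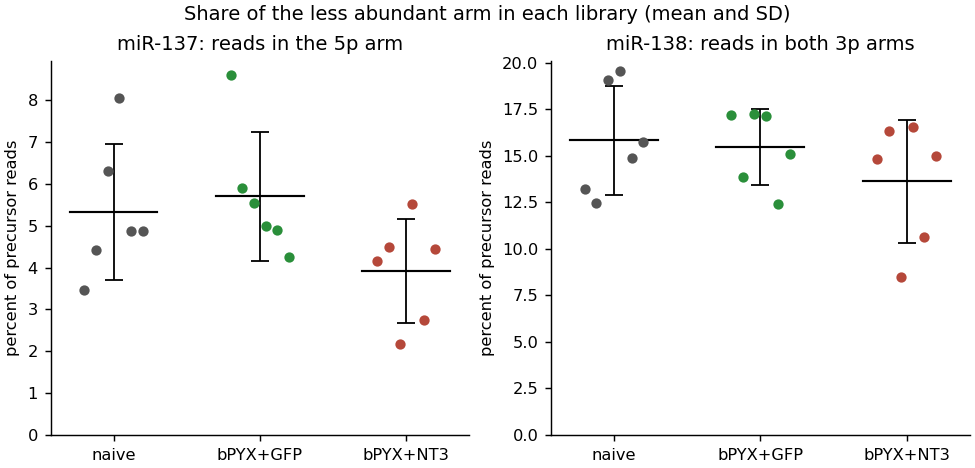
Percent of the reads of each precursor family in its less abundant arm, miR-137-5p in miR-137 and both 3p arms in miR-138, for the 6 libraries of each group with the group mean and SD. The lowest points of both families are bPYX+NT3 replicates 3 and 5, at 2.17 and 2.75% and at 8.50 and 10.6%.

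Across the 18 libraries some members followed each other and others ran opposite. miR-137-3p and miR-138-5p, from different genes on different chromosomes, followed each other, with a Pearson r of 0.92 and a Spearman rho of 0.86 over 18 libraries. Within groups, after each group mean was subtracted, r was 0.90. Without the 2 libraries farthest from the median of miR-137-3p it was 0.80. miR-128-3p ran against miR-138-5p (r = -0.78, rho = -0.70, 18 libraries), with r of -0.69 without the 2 farthest libraries. Against miR-137-3p it had r of -0.71 and rho of -0.55, with r of -0.52 without the 2 farthest and a rho of 0.03 within the 6 naive libraries. miR-137-3p and miR-137-5p, cut from the same hairpin, had r of -0.23 and rho of -0.25, and r of -0.01 without the 2 farthest libraries. The rho of this pair within a group of 6 libraries was -0.83 with neurotrophin-3, -0.03 with the GFP vector and -0.43 in naive rats. miR-138-5p also ran against miR-138-1-3p, an arm of its own precursor (r = -0.61, rho = -0.44), with r of -0.27 without the 2 farthest libraries. With miR-138-2-3p, the 3p arm of its other precursor, its r was 0.06 and its rho -0.10. These are descriptions over libraries that share a scaling and a total, and carry no test.

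Measures of the libraries moved with these levels. The TMM factor, by which each library total was scaled, had a rho of 0.72 with miR-137-3p, 0.80 with miR-138-5p and -0.62 with miR-128-3p over 18 libraries. bPYX+NT3 replicate 3 had the highest factor, 1.14, and bPYX+GFP replicate 5 was next at 1.13. In bPYX+NT3 replicate 3, 31 of the 373 tested miRNAs were more than 1.5-fold from their group mean, against 9 to 24 in the others. The summed glial markers, with miR-338-3p at 0 and nearly all from miR-204-5p, were 5317 CPM in that library and 6032 CPM in bPYX+NT3 replicate 5, against a bPYX+NT3 median of 7712 and a naive range of 6925 to 11924 CPM. Their sensory neuron sums were 25920 and 31024 CPM, against 23643 to 31011 CPM in naive and 28968 to 33103 CPM in bPYX+GFP. Replicate 3 was thus the lowest of its group and below every bPYX+GFP library. It also had the highest immune sum of its group, 1697 CPM, against highest sums of 2381 CPM in naive and 2528 CPM in bPYX+GFP. The endothelial sum, from miR-126a-3p with miR-126a-5p at 0, was 19523 CPM in replicate 3 and 22408 CPM in replicate 5. That of replicate 3 was the lowest of its group, against lowest sums of 21029 CPM in naive and 20900 CPM in bPYX+GFP. The summed smooth muscle markers, miR-145-5p and miR-143-3p, came to 57322 and 58035 CPM in replicates 3 and 5, against a bPYX+NT3 median of 50785 CPM and highest sums of 59405 CPM in bPYX+GFP and 68821 CPM in naive. Skeletal muscle, read from miR-206-3p with its other markers at 0, summed to 200.1 and 102 CPM in these replicates, against a median of 80.9 CPM in bPYX+NT3 and highest sums of 213 CPM there and 297 CPM in bPYX+GFP. miR-145-5p had a log2 fold change of -0.50 ± 0.14 in bPYX+GFP against naive (edgeR unadjusted p = 0.00279, adjusted p = 0.0742) and of 0.40 ± 0.16 in bPYX+NT3 against bPYX+GFP (edgeR unadjusted p = 0.0249, adjusted p = 0.442), beside 0.13 and 0.44 for miR-137-3p. In bPYX+NT3 against naive it was -0.12 ± 0.18 (edgeR adjusted p = 0.805), beside 0.56 for miR-137-3p. miR-143-3p, which made up most of the smooth muscle sum, had log2 fold changes of 0.0096, -0.0017 and -0.0083 in these comparisons, in that order (edgeR adjusted p = 0.983, 0.994 and 0.986). With no TMM factor the log2 fold change of miR-137-3p was 0.47 in bPYX+NT3 against bPYX+GFP and 0.64 against naive, beside 0.44 and 0.56 with it, and that of miR-138-5p was 0.33 and 0.37, beside 0.29 in both. Values of miR-137-3p and miR-138-5p without replicate 3 are given with both comparisons of bPYX+NT3 above. Without replicate 5 the log2 fold change of miR-137-3p against naive was 0.49 (edgeR unadjusted p = 0.0164). The summed red blood cell markers in the table were 360 and 254 CPM in bPYX+NT3 replicates 3 and 5. They ran from 254 to 1067 CPM in bPYX+NT3, from 196 to 677 in bPYX+GFP and from 121 to 553 in naive. The part of the cell types in these levels was not tested.

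**Figure D5:**
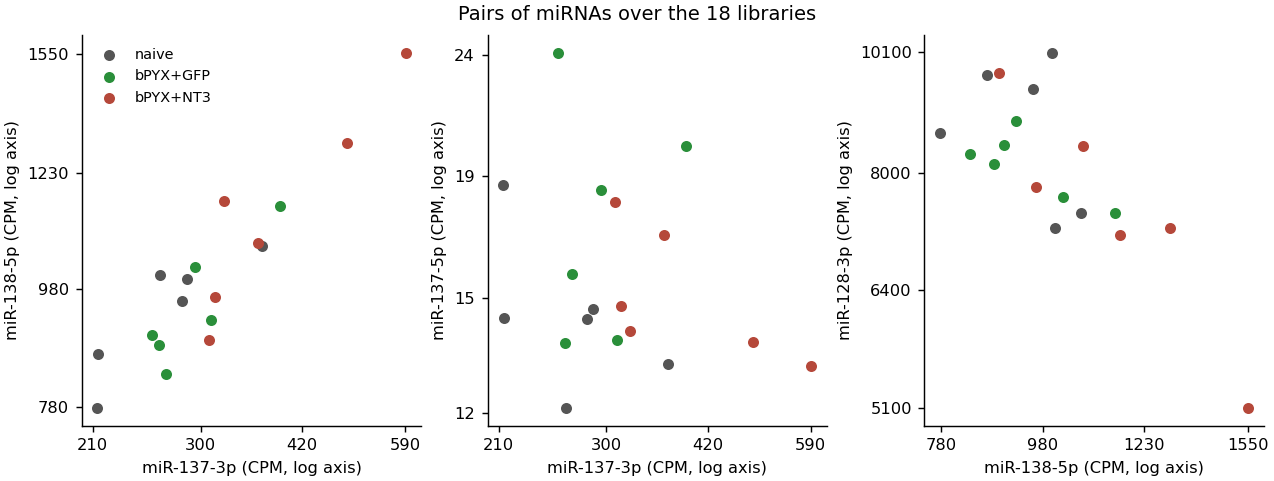
Levels in CPM of pairs of members in the 18 libraries, on log axes, with a colour for each group. miR-138-5p rises with miR-137-3p (rho 0.86) and lies lower where miR-128-3p is higher (rho -0.70), while miR-137-5p against miR-137-3p has a rho of -0.25 over all libraries and -0.83 within bPYX+NT3.

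The variation of miR-137-3p stood above that of most miRNAs. Its coefficient of variation over the 18 libraries was 29.2%, and 83.4% of tested miRNAs had a lower one, with a median of 16.1%. It was 18.4% for miR-138-5p, 14.8% for miR-128-3p and 19.3% for miR-137-5p, whose counts were lowest. The 3p arms of miR-138 were the steadiest, at 11.5% for miR-138-1-3p and 10.1% for miR-138-2-3p.

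The 3 miRNAs most like each member by Spearman rho over the 18 libraries were found among all tested. For miR-137-3p they were miR-384-5p (0.94), miR-376c-3p (0.89) and miR-138-5p (0.86). For miR-138-5p they were miR-376c-3p (0.89), miR-137-3p (0.86) and miR-16-5p (0.83), so both name each other and share miR-376c-3p. For miR-128-3p they were miR-676 (0.87), miR-216a-3p (0.79) and miR-195-3p (0.79). The lists of the minor arms shared no name with those of their partner arms. They were miR-495, miR-383-5p and miR-211-5p for miR-138-1-3p (0.74 to 0.70), miR-15b-3p, miR-93-3p and miR-144-3p for miR-138-2-3p (0.79 to 0.50), and miR-3120, let-7b-5p and let-7b-3p for miR-137-5p (0.60 to 0.58).

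Other miRNAs associated with neurons were read beside the members, as a list of 26 of which 20 passed the filter. At an edgeR unadjusted p under 0.05, 1 of 20 was higher in bPYX+GFP than in naive, 1 in bPYX+NT3 than in bPYX+GFP and 2 in bPYX+NT3 than in naive. Over all tested miRNAs 10.7%, 5.09% and 7.24% were higher by this measure, so the list lay near or below the background. None of the 20 was lower, where 10.5%, 3.49% and 6.43% of all tested were, and 0 passed after adjustment in any comparison. The list's median log2 fold changes were 0.05, 0.02 and 0.0059. miR-182, of the sensory cluster with miR-96 and miR-183, was at 26306 ± 1593 CPM in bPYX+GFP against 22968 ± 2505 in naive (SD, n = 6 per group; log2 fold change 0.20 ± 0.08, edgeR unadjusted p = 0.0223, adjusted p = 0.173), and its log2 fold change for bPYX+NT3 against naive was 0.19 ± 0.09 (edgeR unadjusted p = 0.0407, adjusted p = 0.349). The edgeR unadjusted p of miR-182 rose above 0.05 in bPYX+GFP against naive without naive replicate 4 (0.0574) or bPYX+GFP replicate 1 (0.0564). In bPYX+NT3 against naive the edgeR unadjusted p was 0.0599 with naive replicate 1 left out, 0.102 with naive replicate 4 left out, 0.0739 with bPYX+NT3 replicate 5 left out and 0.0744 with a replicate block. miR-384-5p, a miRNA of synaptic plasticity and the closest to miR-137-3p above, was at 604 ± 103 CPM in bPYX+NT3, against 481 ± 58.1 in bPYX+GFP and 467 ± 79.9 in naive. Its log2 fold change was 0.34 ± 0.13 against bPYX+GFP (edgeR unadjusted p = 0.0161, adjusted p = 0.354) and 0.37 ± 0.13 against naive (edgeR unadjusted p = 0.0100, adjusted p = 0.219). Leaving out each library in turn kept its edgeR unadjusted p from 0.00505 to 0.0494 and from 0.00322 to 0.0287. Of the other arms and related entries of the members, 2 of the 4 in the table passed the filter, both 5p arms of miR-128, and 0 differed at an unadjusted p under 0.05.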

How the data were processed

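The authors aligned adapter-trimmed small RNA reads to the rat build Rnor_5.0 with Bowtie2 and deposited raw read counts per mature miRNA from HTSeq, after bcl2fastq 1.8.4 per the submitters' processing notes. The miRNA annotation and the strand setting of the counting are not given in the sources used here. Here, 5 totals that name no miRNA were left out. The 373 miRNAs with more than 10 counts in at least 6 of 18 libraries were tested in the 12 libraries of each comparison with edgeR 4.0.16 (R 4.3.3), with TMM scaling, the quasi-likelihood F test and Benjamini-Hochberg adjustment over all 373. Intervals (95%) use the t quantile at the degrees of freedom of that test. Arm shares were compared by two-sided exact permutation. The fit was also run on simulated data, and no result given here rests on that run. Libraries are of separate rats, and no pair within a group agreed within counting noise (chi-square per degree of freedom at least 39.6). Naive replicate 1, which the study left out, was kept. All members were named, with those of the other neuron-associated list at an unadjusted p under 0.05 (at most 6 per comparison), the 3 nearest miRNAs of each tested member and any miRNA sharing a seed. The members and lists were chosen with earlier results of these data known. Sequences were matched by name to RefSeq GRCr8.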

Additional observations from a re-analysis of the deposited data

How the results depend on the processing

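The number of members with an adjusted p under 0.05 was 0 in all 3 comparisons under every alternative. These were other scalings (median-of-ratios size factors, or the library size alone), other filters (none, or over 100 counts), other tests (DESeq2 1.42.0, edgeR's likelihood ratio, or a robust prior), all 18 libraries in 1 fit, a replicate block, and each library left out. Over all tested miRNAs the number ran from 3 (without naive replicate 4) to 23 (DESeq2) for bPYX+GFP against naive. It was 0 throughout for bPYX+NT3 against bPYX+GFP, and 0 to 4 (without bPYX+NT3 replicate 4) for bPYX+NT3 against naive. At an unadjusted p under 0.05 the number for bPYX+NT3 against bPYX+GFP was 2 (miR-137-3p and miR-138-5p) with median-of-ratios size factors, the filter of over 100 counts, DESeq2 and the fit of all 18 libraries. Of all tested miRNAs, 33 of 373, 26 of 251, 33 of 373 and 40 of 373 passed under these settings, in that order. Leaving out each library gave 0 to 1 for bPYX+GFP against naive, 0 to 2 for bPYX+NT3 against bPYX+GFP and 1 to 3 for bPYX+NT3 against naive. Over all 373 tested the corresponding numbers were 53 to 78, 24 to 54 and 32 to 68. Both the 3 members and the 68 came without bPYX+NT3 replicate 4. In the exact permutation test of mean log2 CPM (pseudocount 0.5), added after seeing the data, miR-137-3p for bPYX+NT3 against bPYX+GFP (0.39, p = 0.0606) and miR-138-5p for bPYX+NT3 against naive (0.27, p = 0.0779) were no longer under 0.05. miR-138-1-3p changed sign for bPYX+NT3 against bPYX+GFP in that test (-0.000113) and for bPYX+NT3 against naive with the library size alone (0.035) and with the filter of over 100 counts (0.0057). Without single libraries the log2 fold change ranged from -0.074 to 0.052 for miR-138-5p, -0.090 to 0.017 for miR-138-1-3p and -0.048 to 0.054 for miR-138-2-3p in bPYX+GFP against naive, from -0.024 to 0.053 for miR-138-1-3p in bPYX+NT3 against bPYX+GFP, and from -0.079 to 0.034 for miR-138-1-3p in bPYX+NT3 against naive. The cause of these changes was not tested.

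The difference in arm share without single libraries ranged, for miR-137, from -0.213 to 0.914 points in bPYX+GFP against naive, from -2.10 to -1.20 in bPYX+NT3 against bPYX+GFP and from -1.78 to -0.866 in bPYX+NT3 against naive, and for miR-138 from -1.02 to 0.395, from -2.46 to -0.825 and from -2.87 to -1.17. Libraries of the same replicate number correlated from -0.384 to 0.371 in their deviations from the group mean, so the numbers were not taken to pair rats. With the replicate number as a block the share of miR-137-5p in bPYX+NT3 against bPYX+GFP had an exact permutation p of 0.125 (-1.78 points), and no unadjusted call of a member changed. miR-124 and miR-9a were left out of the tests by the filter. In edgeR fits with no filter, adjusted p was 0.705 to 0.880 for miR-124-3p, 0.979 to 0.997 for miR-124-5p and 0.478 to 0.80 for miR-9a-5p over the 3 comparisons, while miR-9a-3p had no counts to fit, and miR-137-5p, at about 16 CPM, had no value under the filter of over 100 counts.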
